A study of Homo sapiens with 19 samples.

Results

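The 10 genes described here carry out or control polyamine synthesis and breakdown: ODC1, AMD1, SRM and SMS build polyamines, OAZ1, OAZ2 and AZIN1 regulate the first enzyme, and SAT1, SMOX and PAOX break polyamines down. They were found by symbol in gene tables of 60612 identifiers (HCT116 short reads), 63086 (WiDr short reads) and 82890 (WiDr long reads), and all 10 had a row in each table. The genes share a pathway, but the list was chosen by someone who already knew their fold changes in these same inhibitor-against-DMSO comparisons. The fold changes of the members against DMSO are therefore given as a description, without p-values. So are the differences between inhibitors, lines and read types, which are built from the same fold changes. P-values are printed only for genes outside the list. Calls of members, kept or lost, are given as a description from which nothing is read.

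Polyamines (putrescine, spermidine and spermine) are small positively charged molecules that bind nucleic acids and are needed for growth and translation. ODC1 decarboxylates ornithine to putrescine. AMD1 decarboxylates S-adenosylmethionine, the same molecule that gives methyl groups to arginine methyltransferases, and the product supplies the aminopropyl groups that SRM and SMS add to make spermidine and spermine. Antizymes (OAZ1, OAZ2) bind ODC1, send it to the proteasome and slow polyamine uptake, while the antizyme inhibitor AZIN1 binds antizymes in its place. SAT1 acetylates spermidine and spermine for export or for oxidation by PAOX, and SMOX oxidises spermine directly. Much of this control acts on translation and protein turnover, which transcript counts do not measure. Polyamine synthesis is known to be raised in colorectal tumours, where ODC1 is a target gene of MYC.

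RNA was measured in 19 libraries of HCT116 and WiDr, established human colorectal carcinoma lines, after 96 h of culture with DMSO solvent or with a compound that blocks protein arginine methyltransferases (PRMTs). GSK025 (GSK3235025), given at 10 uM, is labelled as a PRMT5 inhibitor, and GSK715 (GSK3368715), given at 5 uM, as a PRMT1 inhibitor. Each inhibitor was used at 1 dose and 1 time, each line stands for 1 genetic background, and no genotype or transgene separated the groups. HCT116 was treated with DMSO, GSK025 or GSK715 and WiDr with DMSO or GSK715 (n = 3 libraries per group, poly(A) RNA, short paired reads). Full-length cDNA of WiDr with DMSO or GSK715 was read on an Oxford Nanopore (ONT) instrument (n = 2 libraries per group). Nothing states that the libraries of a group came from separate cultures, so a p-value here sets a difference against the spread of the libraries at hand, which may be technical.

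Between 64558688 and 66915779 counts were obtained per HCT116 library, between 59612948 and 82390261 per WiDr short-read library, and between 1449698 and 1667813 per ONT library. The epithelial markers EPCAM, CDH1, KRT8, KRT18 and KRT19 were abundant in both lines, LGALS4 and VIL1 had means between 0.0339 and 0.377 CPM in HCT116, and CDX2 had a mean of 0.547 CPM in WiDr with DMSO. Of 9 markers of other cell types, CD68 and COL1A1 had mean levels of 6.81 to 79.7 CPM, and the other markers, the leukocyte genes PTPRC and CD3E among them, were at 2.38 mean CPM or lower. Mitochondrially encoded genes took 8.64% to 9.09% of HCT116 counts with DMSO and 5.09% to 5.48% with either inhibitor. In WiDr short reads their share was 6.07% to 6.49% with DMSO and 8.3% to 8.83% with GSK715. Their part in the results below was not tested. Levels are CPM, counts divided by the library size after TMM scaling, a normalisation that balances the bulk of genes between libraries. Differences are log2 fold changes from edgeR's quasi-likelihood fit, with an approximate standard error (SE). A gene is called when its p, adjusted by Benjamini-Hochberg over all genes tested, is at most 0.05. In bulk RNA, fewer cells that express a gene and less RNA per cell cannot be told apart.

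Sequences just upstream of ODC1 and SAT1 are shown because these genes sit at the entry and the exit of the pathway and had the largest opposite differences in WiDr. They come from the RefSeq promoter table (GRCh38.p14), which held entries for 7 of the 10 genes, and only bases outside the annotated gene are printed. Capitals mark the GC box GGGCGG, read on either strand. The ODC1 stretch is chr2:10448505-10448577, minus strand, and the SAT1 stretch is chrX:23782923-23783172, plus strand.
ODC1: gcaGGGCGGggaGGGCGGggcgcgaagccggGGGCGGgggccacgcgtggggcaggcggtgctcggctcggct
SAT1: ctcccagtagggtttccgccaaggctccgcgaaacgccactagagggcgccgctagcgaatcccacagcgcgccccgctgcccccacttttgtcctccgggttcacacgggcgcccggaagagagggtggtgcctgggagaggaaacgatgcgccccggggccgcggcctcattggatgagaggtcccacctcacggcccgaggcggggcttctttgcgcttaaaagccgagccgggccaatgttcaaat
The 250 bases before the first listed start of ODC1 held 4 GC boxes, 3 of them in the stretch shown, and those of SAT1 held none. Among the 35116 windows of this length in the table, 42.6% held a GC box. The E-box CACGTG, the core site of MYC-type factors, was found in the SRM window and in 6.34% of all windows, but not in the windows of ODC1 or SAT1. Neither TGACGTCA (1.65% of windows) nor TATAAA (10.7%) was found in any of the 7 windows. A match describes letters only, and the absence of a match says nothing about binding elsewhere.

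In short reads, the levels of the pathway differed between the lines before any inhibitor was added. Here levels are CPM per kilobase of annotated exon, the scale on which genes can be compared, and a gene with long, rarely used exons is understated by it. In HCT116 with DMSO, SAT1 stood first at 976 ± 4.41 CPM per kb (mean ± SD, n = 3). OAZ1 (122.8), SMS (92.3), ODC1 (89.2), AZIN1 (68.1), AMD1 (32.6), SRM (26.5), OAZ2 (18.1), SMOX (10.8) and PAOX (0.773) followed, all in mean CPM per kb. Only SMS and ODC1 overlapped between libraries among neighbours in that order. In WiDr short reads with DMSO, ODC1 stood first at 231.7 ± 1.67 CPM per kb (n = 3). It was followed by OAZ1 (115.5), SMOX (66.1), SMS (53.9), SAT1 (51.3), AZIN1 (37.2), SRM (28.1), AMD1 (20.9), OAZ2 (9.80) and PAOX (0.661), again in mean CPM per kb, with no neighbours overlapping. The lines were processed as separate tables, so this contrast of levels between them has no test. With GSK715 the order in WiDr short reads became OAZ1 (149.8), SAT1 (114.6), SMS (67.8) and ODC1 (63.5 CPM per kb), so that ODC1 moved from rank 1 to rank 4. ODC1 did not stand first in ONT: with DMSO the mean levels in WiDr were 1456 CPM for OAZ1, 319.4 for SAT1 and 44.8 for ODC1.

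**Figure D1:**
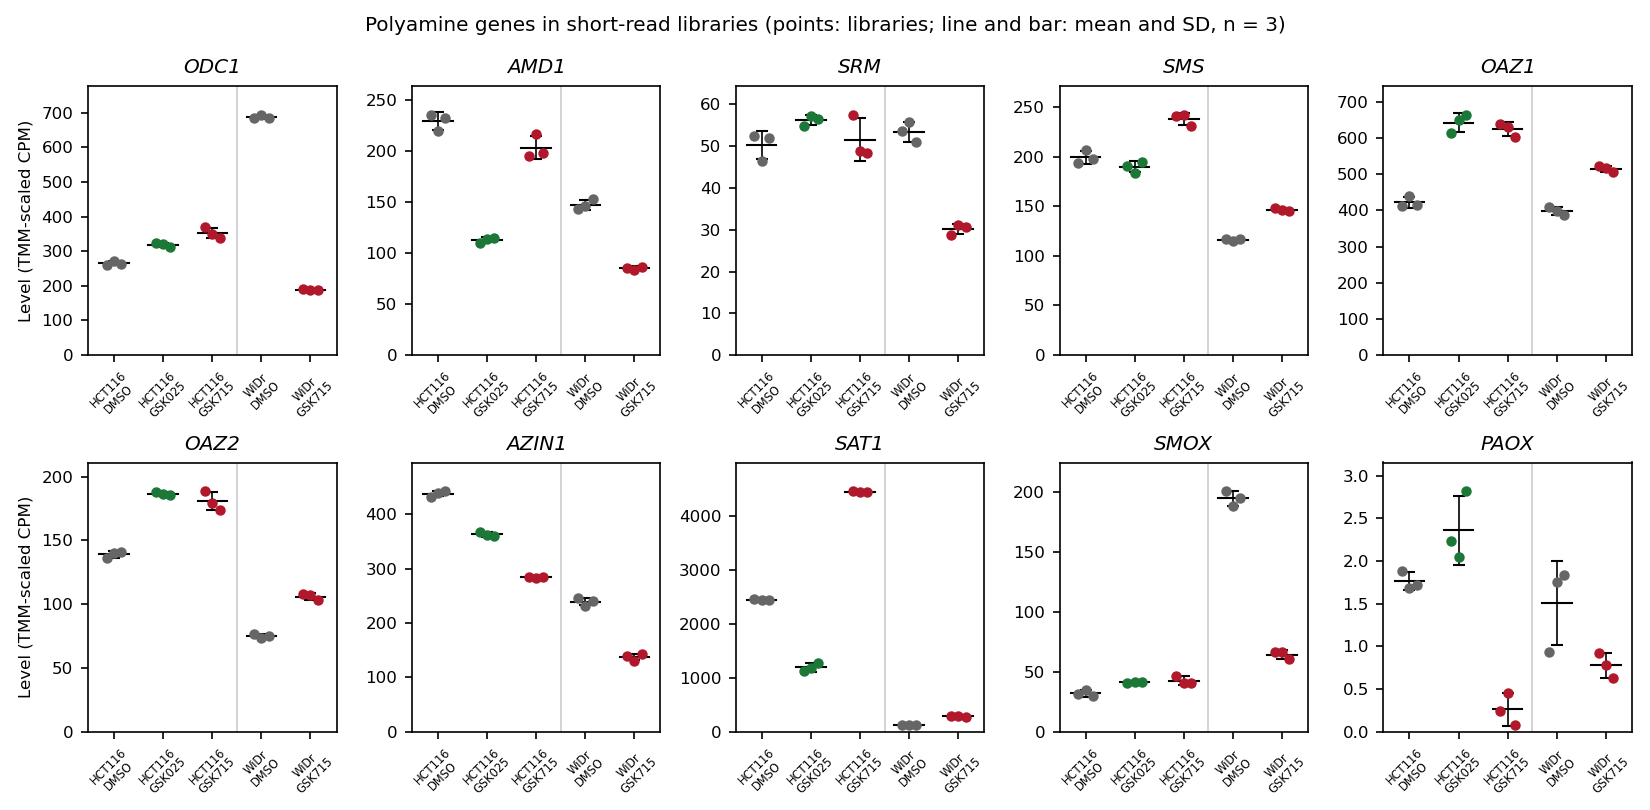
Level of each of the 10 polyamine genes (y axis, TMM-scaled CPM from 0) in each short-read library, by line and treatment (x axis). Points are libraries, horizontal lines and bars the mean and SD of 3 libraries. ODC1 and SMOX are 3.65-fold and 3.03-fold below their DMSO level in WiDr and above it in HCT116, and SAT1 moves in opposite directions with the inhibitors in HCT116.

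ODC1 (ENSG00000115758, GRCh38 chromosome 2, 10439968 to 10448504, minus strand), which makes putrescine, was moderately higher with both inhibitors in HCT116 and far lower with GSK715 in WiDr. In HCT116 it stood at 260.5, 270.7 and 264.0 CPM with DMSO, at 322.7, 320.0 and 310.8 CPM with GSK025, and at 368.9, 351.0 and 339.0 CPM with GSK715. All libraries of each inhibitor lay above all DMSO libraries, with log2 fold changes of 0.26 (SE 0.0391) for GSK025 and 0.41 (SE 0.0392) for GSK715. For ODC1, 61.7% and 44% of HCT116 genes with a mean of at least 5 CPM differed by as much or more. In WiDr short reads it stood at 685.2, 693.8 and 685.1 CPM with DMSO and at 190.6, 187.4 and 187.8 CPM with GSK715. The groups were far apart, a 3.65-fold lower level with GSK715 (log2 fold change -1.87, SE 0.0244). Among the 11221 WiDr genes with a mean of at least 5 CPM, 5.02% differed by as much or more in either direction.

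AMD1 (ENSG00000123505, chromosome 6, 110874770 to 110895713, plus strand), which supplies the aminopropyl donor, was lower in every comparison with DMSO in short reads. In HCT116 it stood at 235.5, 219.4 and 232.7 CPM with DMSO and at 110.2, 114.1 and 114.4 CPM with GSK025, 2.03-fold lower (log2 fold change -1.02, SE 0.0478). With GSK715 it stood at 195.6, 216.7 and 197.8 CPM, just under the DMSO libraries (-0.17, SE 0.0472). In WiDr it stood at 143.2, 146.2 and 152.5 CPM with DMSO and at 85.61, 83.01 and 86.73 CPM with GSK715, with no overlap (-0.79, SE 0.0349). Of genes of at least 5 CPM, 7.29% (GSK025) and 74.2% (GSK715) in HCT116 and 30.5% in WiDr differed by as much.

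The aminopropyl transferases SRM (ENSG00000116649, chromosome 1, 11054584 to 11060024, minus strand) and SMS (ENSG00000102172, chromosome X, 21940573 to 21994835, plus strand) parted in WiDr. SRM, which makes spermidine, stood at 53.5, 55.9 and 51.0 CPM with DMSO and at 28.8, 31.2 and 30.6 CPM with GSK715 (log2 fold change -0.82, SE 0.0542). SMS, which makes spermine, stood at 117.5, 114.9 and 117.2 CPM with DMSO and at 148.2, 145.9 and 145.0 CPM with GSK715 (0.33, SE 0.0287). Of WiDr genes of at least 5 CPM, 28.9% differed by as much as SRM and 65.3% by as much as SMS. The ratio of SMS to SRM per kb was 1.81 to 2.02 in the DMSO libraries and 4.12 to 4.52 in the GSK715 libraries of WiDr.

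In HCT116 the transferases differed less. SRM stood at 52.4, 46.5 and 52.1 CPM with DMSO, at 54.8, 57.2 and 56.6 CPM with GSK025 and at 57.5, 48.8 and 48.4 CPM with GSK715 (0.16, SE 0.0725, and 0.036, SE 0.0726). The GSK025 libraries of SRM all lay above DMSO, and the GSK715 libraries overlapped with it, SRM being at -0.13 with library totals. SMS stood at 193.9, 206.4 and 198.1 CPM with DMSO, at 190.7, 184.1 and 194.9 CPM with GSK025, and at 241.4, 242.3 and 231.1 CPM with GSK715 (-0.07, SE 0.0402, and 0.26, SE 0.0402). Of these, the GSK715 libraries of SMS stood apart from DMSO, a difference that was 0.10 and lost its call when scaled by library totals instead of TMM.

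The regulators of ODC1 moved in 1 direction each in all 3 short-read comparisons: both antizymes were higher and the antizyme inhibitor lower. OAZ1 (ENSG00000104904, chromosome 19, 2269509 to 2273490, plus strand) stood in HCT116 at 412.2, 440.6 and 414.6 CPM with DMSO, at 615.1, 649.2 and 664.6 CPM with GSK025 and at 640.1, 632.0 and 602.6 CPM with GSK715. The log2 fold changes were 0.61 (SE 0.0415) and 0.56 (SE 0.0415), and no inhibitor library overlapped with DMSO. In WiDr it stood at 408.5, 397.3 and 386.1 CPM with DMSO and at 522.0, 516.7 and 507.1 CPM with GSK715 (0.38, SE 0.0284). Of genes of at least 5 CPM, 23% (GSK025) and 29.3% (GSK715) in HCT116 and 61% in WiDr differed by as much. OAZ1 shares 6.9% of its exonic bases with other genes, AC005258.1 on the same strand and JSRP1 on the opposite strand.

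OAZ2 (ENSG00000180304, chromosome 15, 64687573 to 64703281, minus strand), a second antizyme, stood in HCT116 at 135.9, 140.4 and 141.1 CPM with DMSO, at 188.1, 186.5 and 185.8 CPM with GSK025 and at 188.6, 179.8 and 174.3 CPM with GSK715. Both inhibitor groups lay above DMSO (0.43, SE 0.0399, and 0.38, SE 0.04). In WiDr it stood at 77.0, 73.4 and 75.1 CPM with DMSO and at 107.7, 107.1 and 103.2 CPM with GSK715 (0.50, SE 0.0334), again without overlap. For OAZ2, the shares of genes of at least 5 CPM that differed by as much were 40.7%, 47.6% and 50.2% in these comparisons. An antisense transcript covers part of the 7.2% of its exonic bases that are shared, and whether counting used strand is not given in the sources used here.

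AZIN1 (ENSG00000155096, chromosome 8, 102826357 to 102893864, minus strand), which releases ODC1 from antizyme, stood in HCT116 at 433, 438.8 and 442.7 CPM with DMSO, at 368.6, 362.9 and 359.8 CPM with GSK025 and at 284.3, 283.4 and 285.4 CPM with GSK715. The 3 groups were fully separated, with log2 fold changes against DMSO of -0.27 (SE 0.0313) and -0.62 (SE 0.0315). In WiDr it stood at 245.9, 232.1 and 240.5 CPM with DMSO and at 138.6, 130.5 and 142.2 CPM with GSK715 (-0.80, SE 0.0391). For AZIN1, the shares of genes of at least 5 CPM that differed by as much were 60.8%, 24.9% and 30% in these comparisons. The antisense gene AZIN1-AS1 overlaps 5.4% of its exonic bases. The ratio of AZIN1 to OAZ1 per kb was 0.533 to 0.571 with DMSO, 0.29 to 0.321 with GSK025 and 0.238 to 0.253 with GSK715 in HCT116. In WiDr short reads it was 0.313 to 0.333 with DMSO and 0.135 to 0.15 with GSK715. The ratio was thus lower than with DMSO for both inhibitors in HCT116 and for GSK715 in WiDr.

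SAT1 (ENSG00000130066, chromosome X, 23783173 to 23786226, plus strand), which acetylates polyamines, had opposite differences with the inhibitors. In HCT116 it stood at 2452, 2438 and 2431 CPM with DMSO, at 1114, 1183 and 1275 CPM with GSK025, and at 4455, 4448 and 4451 CPM with GSK715. That is 2.05-fold lower with GSK025 (log2 fold change -1.04, SE 0.0404) and 1.82-fold higher with GSK715 (0.87, SE 0.0403), with wide gaps between the groups. CD68, a lysosomal protein used as a macrophage marker, had the same order in HCT116 (22.7, 37.7 and 79.7 mean CPM with GSK025, DMSO and GSK715), while the leukocyte gene PTPRC was at 0 in all 9 libraries. In WiDr short reads CD68 stood at 9.83 with DMSO and 24.1 mean CPM with GSK715, and in ONT at 17.3 and 18.6 mean CPM, its part in the result being not tested. CD68 shares 85.8% of its exonic bases with other annotated transcripts, on both strands. SAT1 in WiDr stood at 129.4, 130.3 and 124.9 CPM with DMSO and at 296.1, 291.9 and 271.6 CPM with GSK715, 2.24-fold higher (1.16, SE 0.0388). Among WiDr genes of at least 5 CPM, 15.9% differed by as much or more.

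SMOX (ENSG00000088826, chromosome 20, 4120980 to 4187747, plus strand), the spermine oxidase, followed ODC1 in direction. In HCT116 it stood at 31.0, 35.0 and 29.8 CPM with DMSO, at 40.4, 41.8 and 41.1 CPM with GSK025, and at 46.8, 40.7 and 40.2 CPM with GSK715 (0.36, SE 0.0762, and 0.41, SE 0.0762). The inhibitor libraries lay above all DMSO libraries. In WiDr it stood at 200.9, 189.0 and 195.0 CPM with DMSO and at 66.6, 66.1 and 60.4 CPM with GSK715, 3.03-fold lower (-1.60, SE 0.044). Of genes of at least 5 CPM, 48% (GSK025) and 43.8% (GSK715) in HCT116 and 7.7% in WiDr differed by as much.

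PAOX (ENSG00000148832, chromosome 10, 133379234 to 133391694, plus strand), which oxidises acetylated polyamines, was scarce throughout. Its HCT116 counts were 130, 115 and 118 with DMSO, 149, 133 and 184 with GSK025 and 15, 29 and 5 with GSK715. GSK715 libraries were thus far below the others (-2.75, SE 0.461), while the difference with GSK025 was about the size of its error (0.42, SE 0.412). In WiDr the counts were 56, 108 and 144 with DMSO and 63, 53 and 39 with GSK715 (-0.96, SE 0.325). WiDr libraries did not overlap in CPM, but DMSO replicate 1 (0.938 CPM) was close to the highest GSK715 library (0.924 CPM), and the call was lost in 6 alternatives: with no count filter (-0.97), with a replicate block (-0.92), and without DMSO replicate 2 (-0.85) or 3 (-0.79) or GSK715 replicate 2 (-0.97) or 3 (-0.82). PAOX shares 6.9% of its exonic bases with another gene of the same strand.

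The counts of called members are set beside the share of all genes called, and nothing is read from them since the list was chosen on these comparisons. With GSK025 in HCT116, 4 of 10 members were called higher (22.0% of all genes tested) and 3 lower (22.1%), and the median log2 fold change of the members was 0.21 against -0.02 for all genes. With GSK715 in HCT116, 6 of 10 were called higher (22.1%) and 3 lower (24.2%), with medians of 0.32 and -0.05. With GSK715 in WiDr short reads, 4 were called higher (33.6%) and 6 lower (32.2%), with medians of -0.80 and 0.05. The HCT116 comparisons share their DMSO libraries. Over genes in HCT116, log2 fold changes had a rank correlation with exonic length of -0.301 with GSK025 and -0.293 with GSK715, against -0.063 in WiDr, so shorter genes tended to be higher with either inhibitor in HCT116. The part of gene length in the members' differences was not tested.

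**Figure D2:**
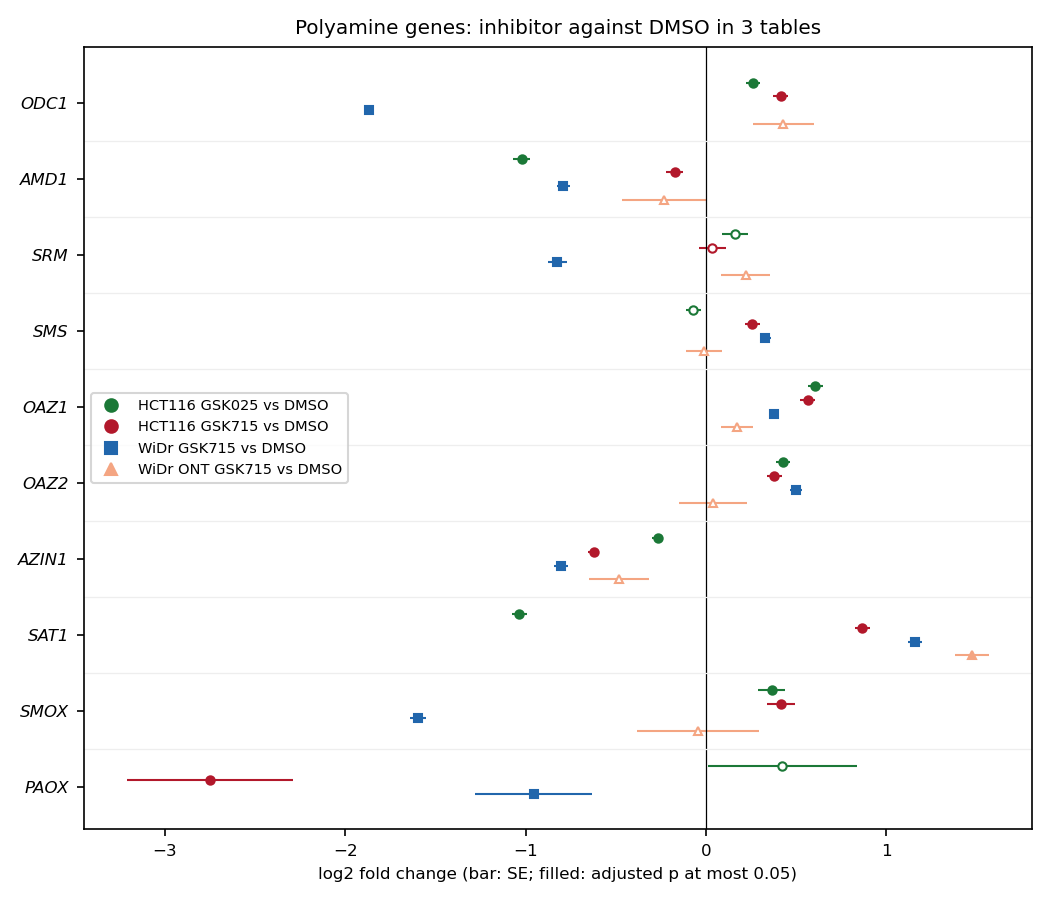
Log2 fold change against DMSO (x axis) of each polyamine gene (y axis) for GSK025 and GSK715 in HCT116 short reads, GSK715 in WiDr short reads and GSK715 in WiDr ONT. Bars are SE, filled symbols are called and open symbols are not. OAZ1 is to the right of 0 and AZIN1 to the left in all 4, and OAZ2 is to the right in short reads. In ONT, OAZ2 is near 0 (0.04, from -0.018 to 0.092 over the alternatives). ODC1 in WiDr is at -1.87 in short reads and 0.43 in ONT.

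The inhibitors can be set against each other in HCT116, as the difference of the fold changes above. The doses differ (10 uM and 5 uM), so the values stand for these treatments and not for equal doses. In the fit across all genes, 4 of 10 members were called higher with GSK715 than with GSK025 (21.8% of all genes) and 2 lower (22.5%), from which nothing is read. SAT1 differed most among the abundant members, at 3.74-fold higher with GSK715 (log2 fold change 1.90, SE 0.0414), and 0.92% of HCT116 genes of at least 5 CPM differed by as much. AMD1 was higher with GSK715 as well (0.85, SE 0.0477), as was SMS (0.33, SE 0.0402). AZIN1 was lower (-0.36, SE 0.0314), and PAOX was lower at its few counts (-3.17, SE 0.465).

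ODC1 was a little higher with GSK715 than with GSK025 (0.15, SE 0.0391), at 0.06 when scaled by library totals instead of TMM. The antizymes were near 0: OAZ1 differed by -0.04 (95% interval -0.131 to 0.048) and OAZ2 by -0.05 (-0.133 to 0.04). SRM stood at -0.12 (interval -0.281 to 0.034) and SMOX at 0.05 (interval -0.114 to 0.216). With library totals, OAZ1, OAZ2 and SRM were at -0.13, -0.14 and -0.22, SMOX turned to -0.04, and SRM was at -0.21 without GSK715 replicate 1. These intervals bound the differences and do not show that the inhibitors act alike on these genes.

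ODC1 and SMOX responded to GSK715 in opposite directions in the lines. The difference of the responses (WiDr minus HCT116) was -2.35 (SE 0.0434) for ODC1, which was higher with GSK715 in 3 of 3 HCT116 libraries and lower in 3 of 3 WiDr libraries. SMOX had a difference of -2.08 (SE 0.0993), again with opposite signs. Of HCT116 and WiDr genes of at least 5 CPM, 4.38% had a line difference as large as that of ODC1 and 5.91% one as large as that of SMOX. By the interaction of line and treatment, 7 of 10 members and 46.7% of all genes were called in either direction. The median difference was -0.26 for the members and 0.12 for all genes.

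The other line differences kept the sign of the response or lay near 0 in 1 line. SRM differed by -0.93 (SE 0.0996) and AMD1 by -0.69 (SE 0.0636), both lower in WiDr. SAT1, higher with GSK715 in both lines, differed by 0.22 (SE 0.0396). OAZ1 (-0.26, SE 0.0469) and AZIN1 (-0.25, SE 0.0479) were below 0 with TMM scaling, but with library totals, which moved the median of all genes by 0.344, these differences turned to 0.10 and 0.10. SMS (0.0024, 95% interval -0.098 to 0.102) and OAZ2 (0.05, interval -0.066 to 0.161) were near 0, and at 0.36 and 0.40 with library totals. PAOX stood at 1.73 (interval 0.253 to 3.199), and at 2.46 without HCT116 GSK715 replicate 2.

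The ratio of SAT1 to ODC1 per kb puts the breakdown and entry enzymes on 1 scale. In HCT116 it was 10.7 to 11.2 in the DMSO libraries, 4.1 to 4.87 with GSK025 and 14.3 to 15.6 with GSK715. In WiDr short reads it was 0.217 to 0.224 with DMSO and 1.72 to 1.85 with GSK715. The ranges of these 5 short-read groups did not overlap, and the WiDr short-read libraries stayed below all HCT116 libraries with either treatment. The ONT libraries of WiDr with DMSO, at 6.96 and 7.3 by estimated counts, were above the HCT116 range with GSK025.

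The ONT libraries gave another picture of WiDr for several members, while SAT1 was higher with GSK715 by both read types. SAT1 stood at 326.8 and 312.0 CPM with DMSO and at 911.2 and 865.7 CPM with GSK715, 2.78-fold higher (log2 fold change 1.48, SE 0.0927). It was the 1 member called higher in ONT (4.29% of all genes tested), and 0 members were called lower (4.51%), of 9 tested by edgeR. By DESeq2 the counts were 1 and 0 as well. PAOX, with 3 to 10 counts a library, was under the count filter. The median log2 fold change of the 9 members was 0.04, against 0.003 for all genes. AZIN1 stood at 72.8 and 64.2 CPM with DMSO and at 42.4 and 56.0 CPM with GSK715, at a log2 fold change of -0.48 (SE 0.166) without a call, and it was called with library totals (-0.54), with a replicate block (-0.49) and without GSK715 replicate 2 (-0.69).

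ODC1 in ONT stood at 46.9 and 42.7 CPM with DMSO and at 62.7 and 57.9 CPM with GSK715, so both GSK715 libraries lay above both DMSO libraries. The log2 fold change of 0.43 (SE 0.171) was not called, and its sign was opposite to that of the short reads of the same line and treatment. SMOX stood at 13.5 and 13.7 CPM with DMSO and at 10.5 and 15.9 CPM with GSK715 (-0.04, SE 0.337), from 15.6 to 23.3 estimated counts a library. SRM stood at 78.1 and 93.9 CPM with DMSO and at 106.1 and 93.2 CPM with GSK715 (0.22, SE 0.136), with overlapping groups.

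The remaining members had log2 fold changes from -0.23 to 0.17 in ONT, with SE of up to 0.232. OAZ1 stood at 1461 and 1450 CPM with DMSO and at 1690 and 1594 CPM with GSK715 (0.17, SE 0.0888), without overlap. OAZ2 ranged from 39.4 to 43.1 CPM (0.04, SE 0.191) and SMS from 227.5 to 248.9 CPM (-0.01, SE 0.101) over the 4 libraries, with overlap. AMD1 stood at 28.2 and 31.3 CPM with DMSO and at 27.9 and 23.3 CPM with GSK715 (-0.23, SE 0.232), with 28.2 and 27.9 CPM as the nearest libraries of the groups. OAZ2 was at -0.02 when scaled by library totals.

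Set against the short reads of the same line, the ONT response to GSK715 lay furthest from it in ODC1. ODC1 differed by 2.35 (ONT minus short reads, log2 scale, SE 0.102), SMOX by 1.60 (SE 0.254) and SRM by 1.09 (SE 0.133). AMD1 differed by 0.61 (SE 0.163), which was 0.39 with library totals and 0.46 to 0.71 without any 1 of the 4 ONT libraries. SAT1 differed by 0.36 (SE 0.0756), which was 0.15 with library totals, and SMS by -0.29 (SE 0.0767). OAZ1 (-0.15), OAZ2 (-0.41), AZIN1 (0.37) and PAOX (0.45) made up the rest, OAZ1 being at -0.37 and OAZ2 at -0.62 with library totals. AZIN1 ranged from 0.14 to 0.54 and PAOX from -0.17 to 1.15 when 1 ONT library was left out. By the interaction of read type and treatment, 6 of 10 members and 19.9% of all genes were called, from which nothing is read.

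The members also differed in level between the read types. With DMSO, the mean level of ODC1 in ONT was 6.52% of its short-read CPM, that of SMOX 6.98%, that of AMD1 20.2%, that of AZIN1 28.6% and that of OAZ2 54.2%. SRM was at 161%, SMS at 204%, SAT1 at 249%, PAOX at 295% and OAZ1 at 366%. ODC1 and SMOX had the lowest shares and the largest read-type differences. SRM, next in difference, was more abundant in ONT, and OAZ1, with the highest share, differed by -0.15 (-0.37 with library totals). The part of these shares in the read-type differences was not tested. Short-read CPM grows with transcript length and ONT counts 1 molecule per read, so these shares are not expected to be equal. Length was allowed for within the ratio of SAT1 to ODC1, which was 0.217 to 0.224 per kb in short-read DMSO libraries and 6.96 to 7.3 by estimated counts in ONT DMSO libraries. With GSK715 the ratios were 1.72 to 1.85 and 14.5 to 14.9, higher than with DMSO by both read types. LGALS4 and VIL1, which separated WiDr from HCT116, had means of 1060 and 76.0 CPM in ONT with DMSO, as high as in WiDr short reads (673 and 64.8 CPM).

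Across genes, few strong short-read decreases went with an ONT value as high as that of ODC1, which itself was not called in ONT. Over 11602 genes tested by both read types, the log2 fold changes of GSK715 had a Pearson r of 0.422 and a Spearman rho of 0.34, as a description over genes that share libraries. Of 894 genes called by both, 782 (87.5%) had the same sign. A set picked after seeing the data held the 284 genes with a short-read log2 fold change of -1.5 or lower and at least 20 CPM in ONT. In it, 249 genes (87.7%) were below 0 in ONT, 128 of them called lower there. The genes at least as high as ODC1 numbered 6, with ODC1 itself counted among them. Without the CPM limit, 84.2% of 499 genes were below 0 in ONT, and 19 were at least as high as ODC1, itself included. What sets ODC1 apart between the read types was not tested.

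**Figure D3:**
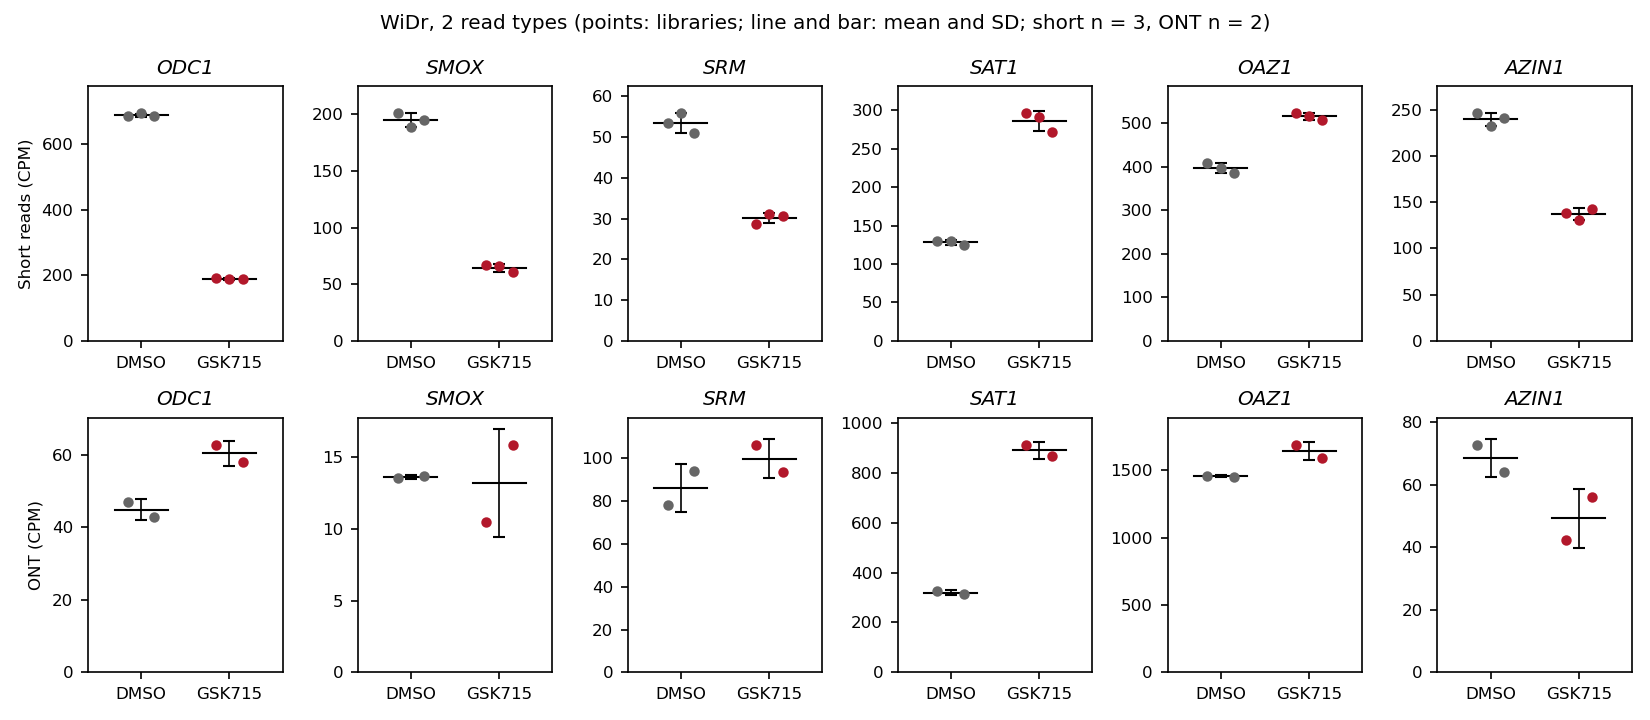
Levels in WiDr of 6 members (y axis, TMM-scaled CPM from 0) with DMSO and GSK715 (x axis), in short reads (top row, n = 3) and ONT (bottom row, n = 2). Points are libraries, lines and bars the mean and SD; ODC1 is lower with GSK715 on top and higher below, while SAT1 is higher in both rows.

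Genes around the pathway were taken from 5 lists made by function, with earlier results of these data known. Their counts are to be read beside the shares of all genes called, which were 22.0% higher and 22.1% lower with GSK025, 22.1% and 24.2% with GSK715 in HCT116, and 33.6% and 32.2% in WiDr. No test compares a list with other genes or between the lines, and the p-values of single genes do not allow for the choice of the lists. WiDr values and counts of these lists are from short reads unless ONT is named. Homologues of the members include SAT2, AZIN2, OAZ3 and SATL1. In HCT116, 2 of 3 tested were higher and 0 lower with each inhibitor, where the third, OAZ3, was at -1.03 with GSK025 (adjusted p = 0.0718, edgeR) and 0.25 with GSK715. In WiDr 2 of 4 were higher and 1 lower. SAT2, a relative of SAT1 that acts mainly on other substrates, rose from 2.39 ± 0.436 to 13.6 ± 0.495 CPM in WiDr (n = 3, log2 fold change 2.51, SE 0.149, adjusted p = 1.85e-07 by edgeR). It rose by 0.45 and 0.43 with GSK025 and GSK715 in HCT116. AZIN2, a second antizyme inhibitor, rose from 0.522 ± 0.341 to 2.54 ± 0.477 CPM in WiDr (2.28, adjusted p = 9.45e-04, edgeR) and by 0.73 with GSK715 in HCT116. It also rose by 0.40 with GSK025, a call lost without DMSO replicate 2 (0.33) or GSK025 replicate 2 (0.33). SATL1, the gene called lower in WiDr, had a mean of 0.529 CPM with DMSO and 0.0147 CPM with GSK715. In ONT, SAT2 stood at 55.4 and 37.0 CPM with DMSO and 45.1 and 42.9 CPM with GSK715, with no call.

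Of 8 genes for the supply of ornithine and arginine, 6 were tested in WiDr, with 1 higher and 4 lower. In HCT116, 0 of 5 tested were higher and 2 lower with GSK025, and 2 were higher and 1 lower with GSK715. ARG2, the mitochondrial arginase that makes ornithine, fell in WiDr from 9.56, 8.85 and 8.01 CPM to 0.719, 0.811 and 1.04 CPM (log2 fold change -3.36, SE 0.19, adjusted p = 1.28e-07, edgeR). In HCT116 ARG2 rose with GSK715 (0.92, adjusted p = 9.85e-06) and fell with GSK025 (-0.43, adjusted p = 0.00477). ARG2 shares 37.4% of its exonic bases with VTI1B on the opposite strand, and the part of that overlap in its counts was not tested. OAT, which uses ornithine for proline and glutamate, rose in WiDr from 21.7, 24.3 and 24.6 CPM to 98.5, 98.5 and 95.9 CPM (2.05, SE 0.0509, adjusted p = 4.54e-10). In ONT the mean of OAT was 17.9 CPM with DMSO and 22.7 CPM with GSK715, and 0 of the 4 genes of this list tested there were called. SLC7A1, an arginine transporter, fell in WiDr from 739, 750.2 and 739 CPM to 206.1, 201.9 and 212.3 CPM (-1.84, SE 0.0274, adjusted p = 2.27e-11). It was not called in HCT116 with either inhibitor (0.04 and -0.02). SLC7A2, a related transporter, fell in HCT116 (-0.65 and -1.09), and AGMAT (-0.82) and SLC25A15 (-0.47) fell in WiDr.

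Of 12 genes of polyamine transport and diamine oxidation, 5 of 9 tested were higher and 3 lower in WiDr. In HCT116, 3 of 8 tested were higher and 1 lower with GSK025, and 4 higher and 1 lower with GSK715. SLC3A2, the heavy chain of amino acid transporters that has also been linked to polyamine export, fell in WiDr from 1548, 1553 and 1555 CPM to 402, 391.8 and 387.3 CPM (-1.98, SE 0.0222, adjusted p = 4.68e-12, edgeR). In HCT116 it rose with GSK715 (0.74, adjusted p = 5.59e-08) and, by a call that library totals ended (0.10), with GSK025 (0.17). ATP13A3, a polyamine uptake pump of the P5B group, fell in all 3 comparisons: at -1.32 with GSK025 and -1.02 with GSK715 in HCT116 (adjusted p = 3.56e-09 and 1.09e-08) and at -0.44 in WiDr (adjusted p = 2.46e-05). AOC1, a diamine oxidase, rose in WiDr from 19.98 ± 1.29 to 61.12 ± 1.03 CPM (n = 3, 1.61, adjusted p = 4.65e-09, edgeR), and SLC22A3, an organic cation transporter, fell there (-2.67, adjusted p = 1.55e-05). The rise of AOC1 was not seen in ONT, where its mean was 68.0 CPM with DMSO and 64.1 CPM with GSK715. ATP13A2 and GPC1 rose in all 3 comparisons (ATP13A2 by 0.27, 0.35 and 0.40, GPC1 by 0.45, 0.35 and 0.22), although GPC1 was not called in WiDr without GSK715 replicate 2 (0.17). SLC12A8 rose with GSK715 in both lines (0.79 and 0.74). In ONT the mean levels of these genes were lower with GSK715 than with DMSO, without a call. They were 22.4 against 27.5 CPM for ATP13A2, 39.6 against 47.0 for GPC1 and 13.4 against 20.1 for SLC12A8. ATP13A4 was called higher in WiDr (0.73), a call lost with no count filter (0.72) and without DMSO replicate 1 (0.55) or 3 (0.57) or GSK715 replicate 1 (0.65), 2 (0.69) or 3 (0.82).

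Methylthioadenosine is the by-product of SRM and SMS, and its salvage leads back to methionine. Of 6 salvage genes, 2 were higher and 2 lower with each inhibitor in HCT116, and 2 higher and 3 lower in WiDr. MTAP, which cleaves methylthioadenosine, fell in all 3 comparisons (-0.28 with GSK025, -0.66 with GSK715 in HCT116 and -0.26 in WiDr, adjusted p = 5.45e-05, 3.29e-08 and 5.14e-05 by edgeR). GOT1, an aminotransferase that can act at the end of the route, fell in WiDr (-2.20, SE 0.0354, adjusted p = 3.23e-11). In HCT116 GOT1 fell with GSK025 (-0.29) and rose with GSK715 (0.50). MRI1 rose in WiDr (1.42) and was lower with GSK715 in HCT116 (-0.36), a call lost without DMSO replicate 3 (-0.30) or GSK715 replicate 1 (-0.30) or 2 (-0.36). MRI1 shares 34.5% of its exonic bases with other genes, C19orf53 on the same strand among them. ADI1 rose in all 3 comparisons (0.65, 0.49 and 0.22), and ENOPH1 rose with GSK025 (0.52) and fell in WiDr (-0.32).

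Spermidine also donates the group that turns a lysine of eIF5A, a translation factor, into hypusine. Of the 4 genes, 3 were higher and 1 lower with GSK025, 2 higher and 1 lower with GSK715 in HCT116, and 1 higher and 3 lower in WiDr. EIF5A rose in HCT116 (0.48 with GSK025, adjusted p = 9.89e-07, and 0.33 with GSK715, adjusted p = 2.39e-05) and fell in WiDr (-0.79, adjusted p = 1.07e-08, edgeR). In ONT the mean of EIF5A was 457.6 CPM with DMSO and 436.9 CPM with GSK715, and 0 of the 3 genes of this list tested there were called. EIF5A2, the scarcer homologue, fell in all 3 comparisons (-0.91, -0.88 and -1.74). DOHH, the second hypusination enzyme, rose in HCT116 (0.60 and 0.46) and fell in WiDr (-0.46), the call with GSK715 in HCT116 being lost with library totals (0.29). DHPS, the first enzyme, rose with GSK025 (0.51) and in WiDr (0.39), the latter lost without DMSO replicate 2 (0.27) or GSK715 replicate 3 (0.28). DHPS shares 41.8% of its exonic bases with other genes, 1 of them on the same strand.

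SLC3A2, SLC7A1, GOT1 and ARG2 were set beside ODC1 after their values were seen. Their line and read-type differences are therefore given without a test, and the p-values printed for these genes do not allow for that choice. The WiDr-minus-HCT116 difference was -2.79 for SLC3A2, -1.89 for SLC7A1, -2.77 for GOT1 and -4.35 for ARG2. The ONT-minus-short-read difference was 1.56 for SLC3A2, 1.47 for SLC7A1, 1.54 for GOT1 and 2.26 for ARG2, the last at 1.65 without ONT GSK715 replicate 2. Whereas ODC1 was higher with GSK715 in ONT, the mean ONT level with GSK715 was below that with DMSO in these 4, at 110 against 152 CPM for SLC3A2, 43.4 against 57.8 for SLC7A1, 26.4 against 43.3 for GOT1 and 2.93 against 6.71 for ARG2. SLC7A1 was not called there (-0.42, adjusted p = 0.149, edgeR), and ARG2 was under the count filter. SLC3A2 (-0.47, adjusted p = 0.00714) and GOT1 (-0.71, adjusted p = 0.0264) were called there by edgeR, as was ENOPH1 (-0.38, adjusted p = 0.0219), and each of these calls was lost with DESeq2, with no count filter and without either ONT DMSO library or GSK715 replicate 1. Without those libraries the values were -0.38 to -0.48 for SLC3A2, -0.56 to -0.78 for GOT1 and -0.29 to -0.44 for ENOPH1. With DMSO, the ONT level was 9.79% of the short-read CPM for SLC3A2, 7.78% for SLC7A1, 31.6% for GOT1 and 76.1% for ARG2.

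**Figure D4:**
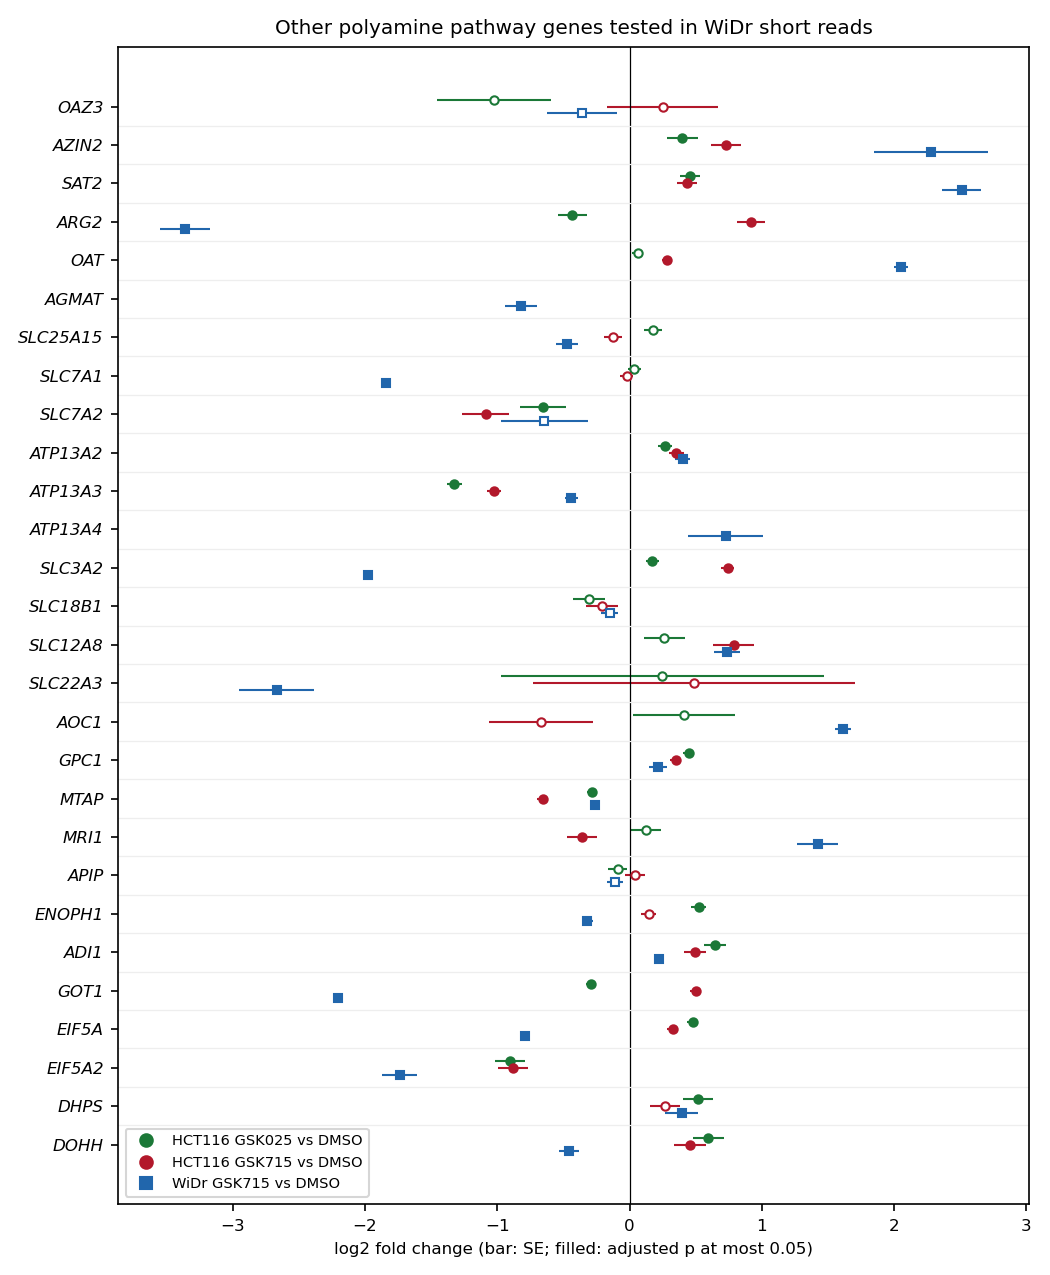
Log2 fold change against DMSO (x axis, bars SE) of the pathway genes outside the 10 members that were tested in WiDr short reads (y axis, SATL1 left out for its few counts), for GSK025 and GSK715 in HCT116 and GSK715 in WiDr. Filled symbols are called; SLC3A2, SLC7A1, ARG2 and GOT1 lie far to the left in WiDr, at -1.98, -1.84, -3.36 and -2.20, and SAT2, AZIN2 and OAT far to the right.

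Next to ODC1, the divergent non-coding gene ODC1-DT (chromosome 2, 10448694 to 10451327, plus strand) was looked at after its values were seen. It stood in WiDr at 3.85, 3.36 and 3.03 CPM with DMSO and at 0.763, 0.737 and 0.766 CPM with GSK715 (log2 fold change -2.17). In HCT116 it was lower with GSK715 (-0.97), where ODC1 was higher, and it was at -0.16 with GSK025. None of the listed pseudogenes of AMD1 and SRM passed the count filter in short reads with an inhibitor against DMSO.

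The genes most like ODC1 over the 9 HCT116 libraries, by Pearson r of log2 CPM among 11187 genes, were RAB1B (0.9957), GRB2 (0.9953) and CKB (0.9953). In WiDr with GSK715, where ODC1 was at -1.87, they stood at 0.18, -0.12 and 0.56. Those most like SAT1 were TMEM39A (0.997), STX16 (0.9968) and ERRFI1 (0.9966), which stood at -0.38, 0.48 and -3.49 in WiDr, where SAT1 was at 1.16. The 9 points fall into 3 treatment groups, so these values mostly describe group means, and the likeness in HCT116 did not carry over to WiDr for these 6 genes in size.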

How the data were processed

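Raw gene counts make up both short-read tables that the authors deposited. The deposited ONT table holds estimated counts, 15.1% of them not whole, which were rounded for the fit. The submitters' processing notes name cutadapt, HISAT2, StringTie, DESeq2, minimap2, Salmon and GRCh38 without versions or steps. The annotation release and strand setting are not given in the sources used here. Samples were grouped by label, and the NC columns of the WiDr tables were read as DMSO, the only control the labels give. Symbols came from a table of gene names, and coordinates and exonic lengths from GENCODE 29.

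Fits used edgeR 4.0.16 in R 4.3.3, 1 per table (filterByExpr with minimum count 10 and minimum total 15, TMM, quasi-likelihood F-test, Benjamini-Hochberg over all genes tested), and the script was tested on simulated data. SE is the log2 fold change divided by the square root of F. Interactions were fitted over identifiers that both tables hold. Alternatives were RLE size factors, library totals, no count filter, DESeq2 1.42.0, a replicate block, each library left out, and only the compared groups. The members and lists were chosen with earlier results of these data known. All members are named, with those other pathway genes called in at least 1 short-read comparison with DMSO and the 3 genes most correlated with ODC1 and with SAT1 (at least 5 CPM, prior count 2). No library was a copy of another: chi-square per gene was 9.82 to 24.6 between short-read replicates and 1.37 to 1.59 in ONT.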

Additional observations from a re-analysis of the deposited data

Results flagged for a closer look

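In the fit across all genes, 7 members were called for a difference of the GSK715 response between the lines (WiDr minus HCT116, log2 scale). They were ODC1 (-2.35), SMOX (-2.08), SRM (-0.93), AMD1 (-0.69), OAZ1 (-0.26), AZIN1 (-0.25) and SAT1 (0.22). The differences are built from the fold changes that were known when the genes were chosen, so they are a description and no independent test. ODC1 and SMOX had opposite signs in the lines, and the OAZ1 and AZIN1 differences changed sign with library totals.

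By the same measure and with the same limit, 6 members differed between read types in WiDr (ONT minus short reads): ODC1 (2.35), SMOX (1.60), SRM (1.09), AMD1 (0.61), SAT1 (0.36) and SMS (-0.29). ODC1 was lower with GSK715 in all 3 short-read libraries and higher in both ONT libraries, relative to the DMSO libraries of each read type. The groups hold 2 or 3 libraries, too few for a search for single outlying libraries.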

How the results depend on the processing

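Of 871 values of the members under alternatives, 817 kept their direction and their side of the threshold, 18 lost the call and 20 gained one. In 14 a value that was not called crossed 0: 3 each of SRM (HCT116, GSK715 against DMSO) and OAZ2 (ONT), 2 each of SMS (ONT), SMOX (GSK715 against GSK025) and PAOX (read types), and 1 each of SMOX (ONT) and SMS (lines). The 2 called values that changed sign were OAZ1 (0.10) and AZIN1 (0.10) in the line difference with library totals, where ATP13A2 (0.33), SLC18B1 (0.35), GPC1 (0.15) and ADI1 (0.0132) changed sign too. That scaling also moved the calls to 2994 higher and 6343 lower for GSK715 in HCT116, 3474 and 5406 for GSK715 against GSK025, 592 and 991 in ONT, 7321 and 3203 for the line difference and 1802 and 3076 for the read-type difference. With TMM they were 4372 and 4785, 4302 and 4444, 681 and 716, 5058 and 5129, and 2697 and 2090. Genes called for GSK715 against DMSO in WiDr ONT numbered 1397, against 251 with no count filter, 233 with DESeq2 and 464 to 1058 with each library left out, the lone library then being assumed to vary like the other group. In ONT, 2 members were called with library totals, 2 with the replicate block and 1 to 2 with each library left out, AZIN1 being the added one each time. Same-numbered libraries did not deviate together (correlations from -0.101 to 0.079 in short reads). No pairing by number was thus seen, but groups this small cannot show that the samples are unpaired. The replicate block gave 8486 genes called for GSK025 in HCT116 and 12351 for GSK715 in WiDr short reads, with 7 and 9 members. In ONT it gave 1706 genes, against 1397 without the block. The 1.45 to 1.67 M counts of the ONT libraries limit that table: the median SE was 0.241 there and 0.0656 in WiDr short reads.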
